A study of Mus musculus with 12 samples.

Results

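Integrins and laminins, the receptors and ligands through which cells hold on to the matrix around them, were followed in primary mouse rib chondrocytes in which enzymes of central carbon metabolism had been deleted. Members were chosen by symbol, with earlier results of these data known. Every row of the expression table named Itga followed by letters or digits was taken, or Itgb followed by a digit from 1 to 8. The third pattern was Lama, Lamb or Lamc followed by a digit. This gave 37 of the 17922 genes in the table, 26 integrin genes (18 alpha and 8 beta chains) and 11 laminin genes (5 alpha, 3 beta and 3 gamma chains). The LDH knockout carried Col2-Cre with 2 floxed Ldha alleles and lacked 1 allele of Ldhb (Ldha fl/fl, Ldhb +/-), and its cells came from P5 mice. For the Acly knockout (Acly fl/fl, again with Col2-Cre) the mice were at E18.5. Each knockout had its own littermate controls, whose Cre and floxed alleles the labels do not give. All 4 groups held 3 samples (n = 3) on a C57BL/6-dominant mixed background. Rib cartilage was digested with collagenase and the cells were cultured overnight in medium with fetal calf serum before lysis. The labels do not say whether a sample is 1 animal or a pool, so p-values measure the spread between these samples. The stated purpose was to follow skeletal development with less glycolysis or less cytoplasmic acetyl-CoA. Col2-Cre acts in cells of the chondrocyte lineage, so other cell types in the digest keep the floxed gene.

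An integrin is a pair of 1 alpha and 1 beta chain that crosses the membrane, binds matrix outside and couples to actin inside through talin, kindlin and other adaptors. A laminin is a cross-shaped trimer of an alpha, a beta and a gamma chain, secreted into basement membranes and into the thin pericellular matrix that surrounds chondrocytes. Cartilage has no basement membrane of its own, and chondrocytes are known for integrins that bind collagen II and fibronectin, most of them built on the Itgb1 chain.

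The deposited tables held 26362407 to 28154143 expected counts per sample. Comparisons within a gene are given in CPM, counts scaled to library size, and levels of different genes in TPM, which also divides by transcript length. The floxed genes followed the labels: Ldha stood at 79.3, 88.8 and 92.1 CPM in the LDH knockouts against 792 to 894 CPM in their controls, and Acly at 83.0, 52.5 and 87.0 CPM in the Acly knockouts against 192 to 202 CPM. Ldhb, of which the knockout keeps an allele, stood at 14.2 to 16.4 CPM in the LDH knockouts and 11.3 to 12.3 CPM in their controls, a difference that was not called (log2 fold change 0.37, edgeR adjusted p = 0.115). Every knockout lay above every control, so the missing Ldhb allele did not show as lower RNA. The chondrocyte label held in all samples, with summed TPM of the chondrocyte markers between 3868 and 11047. Markers of other cells were present too, among them fibroblast and perichondrial markers at 427 to 2918 summed TPM. Of that sum, Dcn alone averaged 437 of 612 TPM in the LDH knockouts and 365 of 594 TPM in their controls. Y-linked transcripts were under 1 CPM in all 3 LDH knockouts and in LDH control 3, and at 93.0 and 102 CPM in LDH controls 1 and 2, so this signal moved with the LDH comparison. In the Acly set, knockouts 2 and 3 and control 2 were high. In bulk samples such as these, fewer cells of a type and less RNA per cell cannot be told apart.

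Of the 37 members, 30 had 3 or more counts in all 12 samples, 6 had them in some samples and 1, Itgad, in none. The 6 detected in some samples only were Lama3, Itgb6, Itgb8, Itgax, Lamc3 and Itgae. These and Itgad were too low to be tested in the LDH comparison, and Itgax, Lamc3, Itgae and Itgad were too low in the Acly comparison as well. A level of 10 TPM or more on average over all samples was reached by 12 members, and 11 averaged under 1 TPM. The top of the list was the same in the 4 groups: Itgb5, which pairs with Itgav to bind vitronectin, Itgb1, the common partner of most alpha chains, and Itga5, the alpha chain of the fibronectin receptor. In the P5 set the level of Itgb5 was 211 ± 14.4 TPM (SD) in controls and 203 ± 20.6 TPM in knockouts, and at E18.5 it was 224 ± 6.53 TPM and 213 ± 16.0 TPM. Itgb1 stood at 174 ± 20.5, 163 ± 8.83, 227 ± 26.7 and 181 ± 36.7 TPM in the same order. Over all 12 samples these beta chains spanned 181 to 231 TPM for Itgb5 and 143 to 250 TPM for Itgb1. Itga5 stood lower in the P5 set, at 65.5 ± 5.25 TPM in LDH controls, than in the E18.5 set, at 174 ± 14 TPM in Acly controls. In the LDH controls the ranges of Itgb5, Itgb1, Itga5 and Itga3 followed each other without overlap, whereas among Itga3, Lamb2, Lamc1, Itga6 and Itgav no neighbours in the order differed beyond the spread over samples. In the Acly controls Itgb1 and Itgb5 overlapped, and Itga5, Lamc1 and Itga6 came next with separate ranges.

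Among laminins the chain with the highest level was Lamb2 in the LDH controls (30.7 ± 2.75 TPM), closely followed by Lamc1 (26.4 ± 2.69 TPM), and Lamc1 in the Acly controls (88.5 ± 8.57 TPM). Lamc1 is the gamma chain of most laminins. Of the alpha chains, which carry the main integrin-binding end, Lama4 had the highest level in both control groups, at 5.88 ± 1.49 and 34.9 ± 2.22 TPM, ahead of Lama5 at 2.68 ± 0.312 and 5.63 ± 0.584 TPM. Lama1 and Lama2 stood at 0.687 and 0.303 TPM in LDH controls and at 2.32 and 2.22 TPM in Acly controls. Of the collagen-binding alpha chains, Itga10, the one most typical of chondrocytes, led with 13.7 ± 1.02 TPM in LDH controls and 26.2 ± 0.947 TPM in Acly controls. Its relatives Itga1 and Itga11 were between 1.07 and 7.49 TPM in every sample, and Itga2 between 0.18 and 0.47 TPM. Among integrin chains known from leukocytes the highest level was that of Itgb7, at 9.39 to 15.9 TPM. Itgam, Itgb2 and Itgal ranged from 0.17 to 5.19 TPM, while Itgax, Itgae and Itgad reached at most 0.16 TPM. Leukocyte markers were present, with a summed level of 172 to 336 TPM that was led by the macrophage genes Lyz2 (42.4 to 156 TPM) and Cd68 (43 to 124 TPM), while the general leukocyte marker Ptprc stood at 0.23 to 0.77 TPM. Itga2b, the platelet fibrinogen receptor chain, was at 2.16 to 3.45 TPM.

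**Figure D1:**
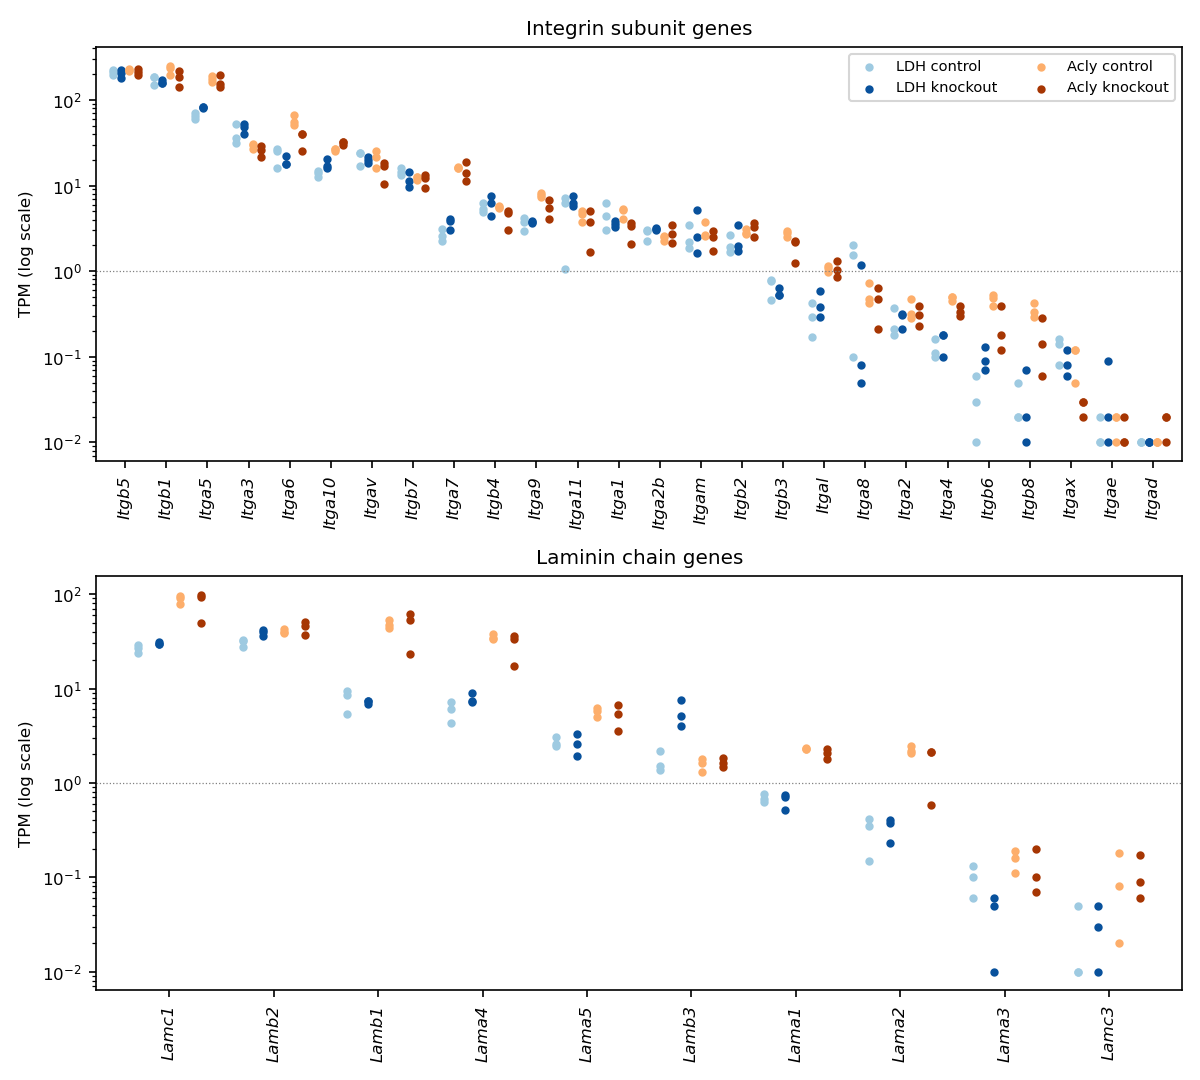
Deposited TPM of the members reported here in the 12 samples on a log axis, with points for samples coloured by group; values under 0.01 TPM are drawn at 0.01, and the dotted line is at 1 TPM. Itgb5, Itgb1 and Itga5 are highest in every group, and many laminin and integrin chains are higher in the Acly set than in the LDH set.

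In the LDH knockout few members were called, and the laminin chain Lamb3 rose 3.38-fold. Of the 30 members tested, 3 passed an adjusted p of 0.05 in edgeR's quasi-likelihood test, all higher in the knockout, Lamb3 and Itga5 among them. That is 10.0% of the members tested, beside 2.49% of all 13321 genes tested, of which 1.43% were called higher and 1.07% lower. At an unadjusted p under 0.05 there were 8 members, all higher in the knockout, where 19.6% of all genes passed, 9.79% higher and 9.83% lower. The same 8 members had groups that did not overlap, all with the knockouts above the controls, beside 24.3% of all genes, 11.9% apart in that direction and 12.5% in the other. The median log2 fold change over the 30 members was 0.19, against 0.01 over all genes. Of the 30, 26 lay within 0.5 of zero on the log2 scale. Without regard to sign, the median change was 0.25 over the members and 0.15 over all genes.

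Lamb3 encodes a beta chain that joins the Lama3 alpha chain in the laminin of epithelial basement membranes. Lamb3 was at 16.3, 11.2 and 8.37 CPM in the LDH knockouts and at 3.09, 4.45 and 3.08 CPM in their controls. Every knockout lay above every control. The fold was 3.38 (log2 fold change 1.75, SE 0.25, edgeR adjusted p = 0.0101). On the TPM scale Lamb3 remained low, at 5.54 ± 1.82 TPM in the knockouts and 1.69 ± 0.443 TPM in the controls. Lama3 had 6, 1 and 5 counts in the knockouts and 12, 5 and 8 in the controls and was too low to be tested. Markers of epithelial cells, which make this laminin elsewhere in the body, were low: their summed level was 4.20 to 5.28 TPM in the knockouts and 1.57 to 5.40 TPM in the controls, and 1 of 10 passed the filter on low counts. This marker, Krt18, a keratin of simple epithelia, was at 2.68, 2.84 and 4.22 TPM in the knockouts and 1.72, 2.34 and 1.16 TPM in the controls, higher in every knockout but not called (log2 fold change 0.93, SE 0.29, unadjusted p = 0.0102, edgeR adjusted p = 0.124). Its part in the Lamb3 difference was not tested. Of the keratinocyte markers, Krt14 was at 0, 0.06 and 0.07 TPM in the knockouts and 0.89, 0.26 and 0 TPM in the controls, and Krt5 and Trp63 did not exceed 0.15 TPM in any of the 6 samples.

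Itga5, which with Itgb1 binds fibronectin, was at 189, 199 and 189.6 CPM in the LDH knockouts and at 161, 146 and 147 CPM in the controls. The groups were apart and each was tight, and the rise was 1.27-fold (log2 fold change 0.35, SE 0.08, edgeR adjusted p = 0.0445). Its partner Itgb1 was at 348, 365 and 377 CPM in the knockouts and 401, 396 and 349 CPM in the controls, which overlapped (log2 fold change -0.07, SE 0.09, edgeR adjusted p = 0.692). Of the called members, RefSeq windows were at hand for Lamb3 and Itga5 and are shown for the letters just upstream of genes that rose. They cover 250 bases before the start in GRCm38.p6, a later build than the one the reads were aligned to, read 5′ to 3′ on the gene's strand, at chr1:193301744-193301993 on the plus strand for Lamb3 and chr15:103366792-103367041 on the minus strand for Itga5. Capitals mark matches to 4 motifs searched on both strands, which may overlap: AP-1 (TGANTCA), GC box (GGGCGG), SOX (ACAANG) and TATA box (TATAAA).

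Lamb3: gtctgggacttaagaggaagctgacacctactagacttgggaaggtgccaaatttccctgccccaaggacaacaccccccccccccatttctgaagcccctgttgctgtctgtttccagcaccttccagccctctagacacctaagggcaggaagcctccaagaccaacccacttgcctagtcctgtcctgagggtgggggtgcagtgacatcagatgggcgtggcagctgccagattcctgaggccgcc

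Itga5: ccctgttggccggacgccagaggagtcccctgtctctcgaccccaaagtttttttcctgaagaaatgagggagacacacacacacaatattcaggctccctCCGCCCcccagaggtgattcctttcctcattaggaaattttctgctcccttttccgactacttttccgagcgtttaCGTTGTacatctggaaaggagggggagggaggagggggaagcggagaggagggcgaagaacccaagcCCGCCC

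The Lamb3 window held none of the 4 motifs, and neither did the window of its other start. The Itga5 window held 2 GC boxes, 144 and 1 bases before the start, and 1 SOX match, 68 bases before it. Over all 32841 windows of this length in the table, 6.75% held the AP-1 letters, 32.7% the GC box, 36.3% the SOX letters and 12.4% the TATA box. Among the 23 members with a window, 1 held the AP-1 letters, 8 a GC box, 7 a SOX match and 0 a TATA box. A match is a description of the letters and not of a bound site.

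**Figure D2:**
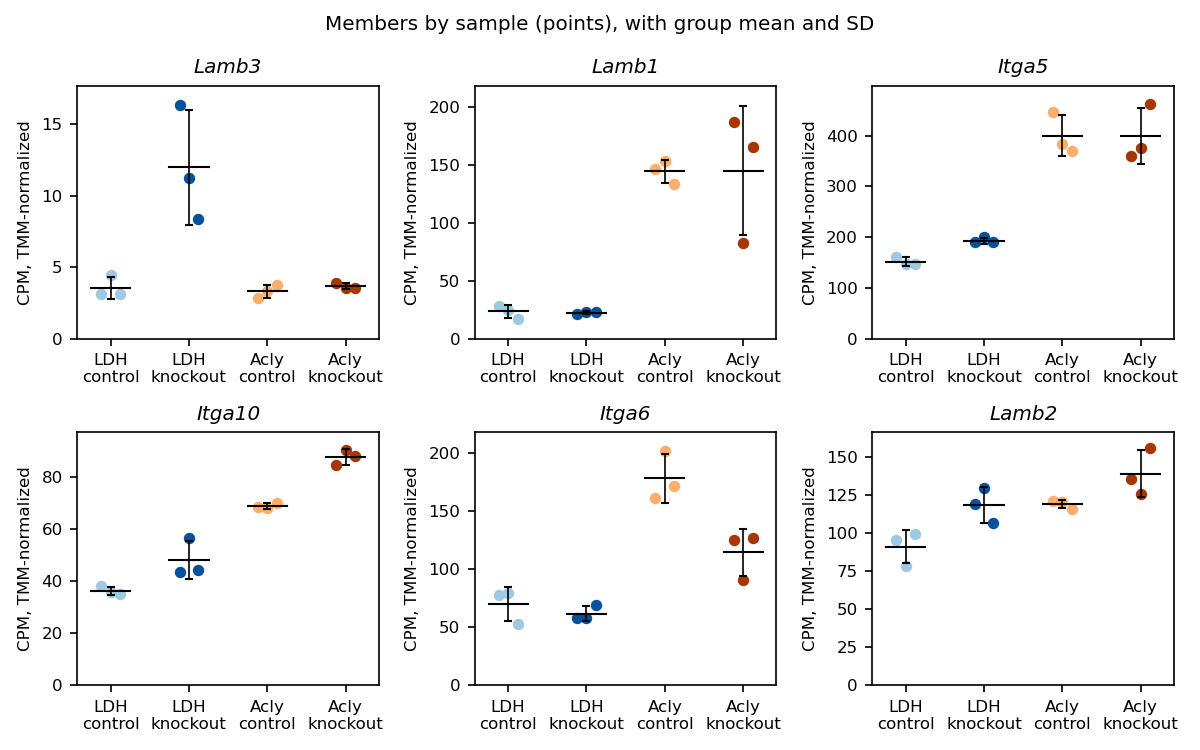
CPM of Lamb3, Lamb1, Itga5, Itga10, Itga6 and Lamb2 in each sample, knockout and control of each set side by side, with a black bar for the mean ± SD (n = 3). Lamb3 and Itga5 lie higher in all LDH knockouts than in all LDH controls; CPM values are scaled within each set, so the sets are not compared in height.

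The other 5 members whose LDH groups were apart were higher in the knockout but not called. Itga10, the collagen II receptor chain, was at 43.3, 56.4 and 44.4 CPM in the knockouts and 38.1, 35.6 and 35.1 CPM in the controls (log2 fold change 0.40, SE 0.11, edgeR adjusted p = 0.0864). Lamb2, the laminin beta chain with the highest level in this set, was at 119, 129 and 106 CPM against 95.4, 78.4 and 98.9 CPM (0.38, SE 0.11, edgeR adjusted p = 0.0946). Itga10 and Lamb2 were called by DESeq2, at adjusted p = 0.0249 and 0.0253. Lamc1, Lama4 and Itga7 had log2 fold changes of 0.23, 0.45 and 0.48 with edgeR adjusted p of 0.170, 0.172 and 0.186, and for Itga7, a laminin-binding alpha chain of muscle, the lowest knockout and the highest control both stood at 6.46 CPM. The largest estimate in the other direction was that of Itga8, a chain that binds Arg-Gly-Asp ligands, at -1.45 with an SE of 1.06. Its values were 3.67, 0.224 and 0.146 CPM in the knockouts and 0.246, 5.86 and 4.99 CPM in the controls, so both groups held low and high samples. Itga6, Itgav, Itgb5 and Lamb1 had log2 fold changes of -0.18, -0.09, -0.04 and -0.07, all with overlapping groups. The 16 remaining tested members, among them Itgb4, the laminin receptor chain of hemidesmosomes, had overlapping groups too, with log2 fold changes between -0.31 (Itga1) and 0.53 (Itgal). Of those not tested, Itgb6, a chain of epithelial integrins, had 5, 9 and 6 counts in the knockouts and 1, 2 and 4 in the controls, apart by 1 count. Itgb8 had 3, 1 and 0 counts against 1, 2 and 1, and Lamc3 had 4, 3 and 0 against 4, 1 and 1. Itgax had 7, 5 and 3 counts against 8, 9 and 5, and Itgae 5, 0 and 1 against 0, 0 and 1. At such counts a small or moderate difference cannot be detected at this depth.

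**Figure D3:**
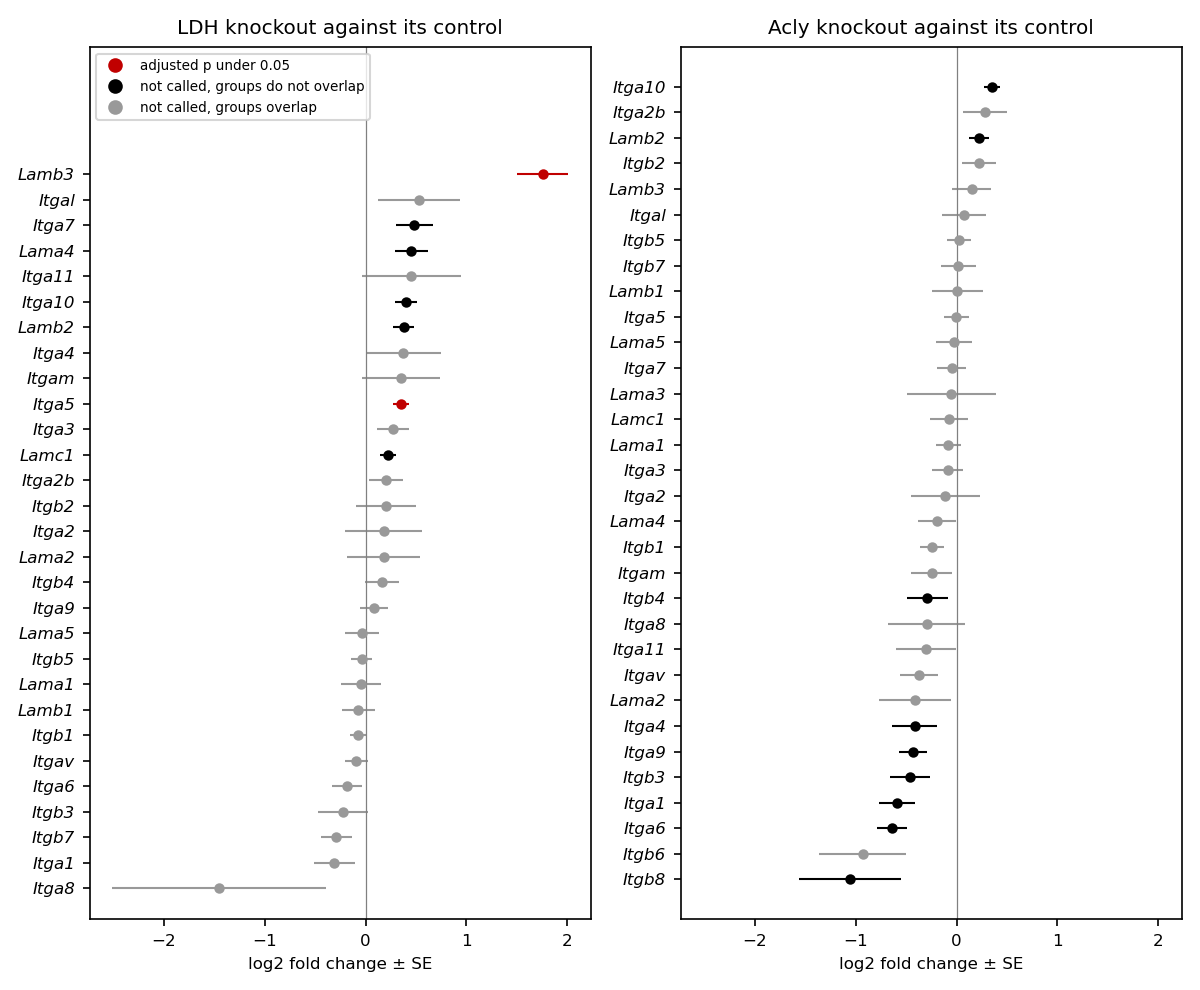
Log2 fold change (knockout over control) ± SE of the tested members reported here in the LDH (left) and Acly (right) comparison; red points have an edgeR adjusted p under 0.05, black points have groups that do not overlap without a call, and grey points have groups that overlap. Lamb3 stands highest in the LDH panel at 1.75, and no point is red in the Acly panel.

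The calls in the LDH set changed with samples and settings. Lamb3 remained called in 10 of the 13 alternatives tried, with log2 fold changes of 1.47 to 2.02, and was lost without LDH control 3 (adjusted p = 0.0591) and with a term for the Y-linked signal (0.284). Itga5 remained called in 3 of 13 (0.32 to 0.42), and neither changed sign. In a comparison of the samples with low Y-linked signal, the 3 knockouts against LDH control 3 alone, chosen after the data were seen, the log2 fold changes were 1.96 for Lamb3 and 0.40 for Itga5, without a call. Lamb3 was at 3.08 CPM in LDH control 3, the only control with low Y-linked signal, and at 3.09 and 4.45 CPM in the others. A single such control does not separate this signal from the knockout. The part of that signal in the calls was not tested beyond these fits.

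Among basement membrane and pericellular partners of laminin, 5 of 20 tested genes were called in the LDH knockout, all higher. Of all genes 2.49% were called, 1.43% higher and 1.07% lower. The list median log2 fold change was 0.33. Groups were apart for 12 of the 20, beside 24.3% of all genes. Of these, 11 were higher and 1, Col18a1, was lower (-0.33, SE 0.11, edgeR adjusted p = 0.152). Nid2, a nidogen that bridges laminin and collagen IV, was at 181, 202 and 150 CPM in the knockouts and 104, 82.4 and 96.0 CPM in the controls (log2 fold change 0.91, SE 0.12, edgeR adjusted p = 0.00754). Its relative Nid1 was at 70.6, 75.7 and 70.8 CPM against 53.7, 51.8 and 49.3 CPM (0.49, SE 0.07, edgeR adjusted p = 0.0123). Col4a5, a collagen IV chain, was at 7.26, 7.86 and 4.64 CPM against 2.42, 2.08 and 1.84 CPM (1.64, SE 0.23, edgeR adjusted p = 0.00945). Agrn, the laminin-binding proteoglycan agrin, rose by 0.49 (SE 0.09, edgeR adjusted p = 0.0282) and Col15a1, a basement membrane zone collagen, by 0.68 (SE 0.15, edgeR adjusted p = 0.0442) on the log2 scale. In each of these 5 called genes the lowest knockout lay above the highest control, as for 11.9% of all genes. The calls come from the same samples, so this is no separate support.

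Of 30 tested integrin ligands, 4 were called higher and 1 lower in the LDH knockout, beside 1.43% and 1.07% of all genes (list median 0.07). Thbs1, the adhesive glycoprotein thrombospondin, was at 752, 586 and 634 CPM against 328, 254 and 266 CPM (log2 fold change 1.22, SE 0.13, edgeR adjusted p = 0.00316). Ctgf, a matricellular protein that binds integrins, was at 523, 528 and 359 CPM against 190.3, 184 and 204 CPM (1.29, SE 0.14, edgeR adjusted p = 0.00357). Col2a1, the main cartilage collagen, and Fbln5, an elastic fibre protein, rose by 1.02 and 0.64 on the log2 scale (edgeR adjusted p = 0.0123 and 0.0351). Spp1, the mineral-binding ligand osteopontin, fell by 1.01 on that scale (SE 0.21, edgeR adjusted p = 0.0384). Of 39 adaptors and activators inside the cell, 2 were called, both higher, beside 2.49% of all genes called in either direction. They were Lims2, part of the complex around integrin-linked kinase (0.58, SE 0.13, edgeR adjusted p = 0.0446), and Nedd9, a docking protein of focal adhesions (0.49, SE 0.11, edgeR adjusted p = 0.0473). None of 13 laminin receptors other than integrins was called by edgeR or by DESeq2. At an unadjusted p under 0.05 there were 5, 3 higher and 2 lower, where 19.6% of all genes passed. Marker lists differed in the same samples, where 2.49% of all genes were called. Called higher were 9 of 13 tested chondrocyte markers and 7 of 9 adipocyte markers. Called lower were 2 of 7 osteoblast markers and 1 of 10 fibroblast markers. Smooth muscle and skeletal muscle lists had 1 of 8 and 1 of 10 called, both higher. The leukocyte, platelet, endothelial, epithelial, Schwann and erythroid lists had no call. Summed chondrocyte marker TPM was 7687 to 11047 in the LDH knockouts and 4329 to 4915 in their controls, and summed adipocyte marker TPM 71.2 to 189 and 25.1 to 33.1. Summed fibroblast marker TPM overlapped, at 525 to 708 in the knockouts and 427 to 807 in the controls. The part of these marker changes in the members' differences was not tested.

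**Figure D4:**
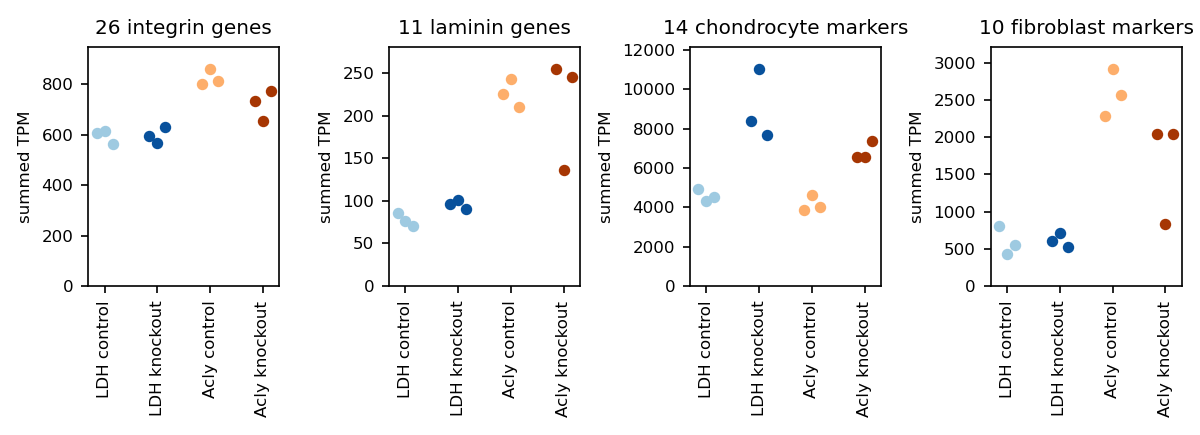
Summed TPM of the 26 integrin genes, the 11 laminin genes, 14 chondrocyte markers and 10 fibroblast markers, with a point for each sample, by group. Laminins sum to 70.5 to 100.4 TPM in the LDH set and to 136 to 255 TPM in the Acly set, where knockout 2 is lowest.

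As a whole the integrins summed to 562 to 631 TPM in the LDH set, with overlapping groups, and to 654 to 771 TPM in Acly knockouts against 802 to 861 TPM in their controls. Laminins summed to 90.6 to 100.4 TPM in LDH knockouts and 70.5 to 85.1 TPM in their controls, and to 136 to 255 TPM in Acly knockouts and 210.4 to 243 TPM in theirs. These sums are descriptions and were not tested.

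In the Acly knockout no member was called by edgeR. By edgeR 0 of 33 tested members passed an adjusted p of 0.05, in a comparison in which 0.136% of 13973 genes did. At an unadjusted p under 0.05 there were 7 members, 2 higher and 5 lower in the knockout, beside 15.8% of all genes (7.26% higher and 8.57% lower), and DESeq2 called 2. The groups did not overlap for 2 members with the knockout higher, Itga10 and Lamb2, and for 8 with the knockout lower, among them Itga6, Itga1, Itga9, Itgb3, Itgb8, Itga4 and Itgb4. Of all genes, 22.0% were apart, 10.7% in the higher and 11.3% in the lower direction. The median log2 fold change over the members was -0.11, beside -0.00178 over all genes, with 9 positive and 24 negative. Itga10 was at 84.6, 90.3 and 88.1 CPM in the Acly knockouts and 68.3, 68.2 and 70.0 CPM in the controls. Both groups were tight and apart, and the 1.27-fold difference had an edgeR adjusted p of 0.172 and a DESeq2 adjusted p of 0.0197 (log2 fold change 0.35, SE 0.08). Itga6, an alpha chain of laminin receptors, was at 125, 90.5 and 127 CPM in the knockouts and 161, 202 and 171 CPM in the controls, with every knockout below every control (-0.64, SE 0.15, edgeR adjusted p = 0.175, DESeq2 adjusted p = 0.00424). Lamb2 was at 135, 126 and 156 CPM against 121, 120.3 and 115 CPM (0.22, SE 0.10, edgeR adjusted p = 0.315). Itga1, a collagen receptor chain, was at 11.6, 7.62 and 10.8 CPM against 13.1, 15.9 and 16.1 CPM (-0.59, SE 0.18, edgeR adjusted p = 0.245). Itga9, a tenascin-binding chain, was at 22.4, 15.6 and 18.3 CPM against 24.3, 26 and 25.6 CPM (-0.43, SE 0.14, edgeR adjusted p = 0.257). All 3 knockouts lay below all 3 controls in both genes, with knockout 2 the lowest. Itgb3, which pairs with Itgav and Itga2b, was at 6.69, 4.34 and 7.06 CPM against 7.82, 8.58 and 8.54 CPM (-0.46, SE 0.20, edgeR adjusted p = 0.310). Itgb8 had 12, 3 and 6 counts in the knockouts and 13, 18 and 14 in the controls, apart by 1 count. The members with overlapping groups had log2 fold changes between -0.93 for Itgb6, at 0.297, 0.513 and 0.971 CPM against 0.969, 1.25 and 1.20 CPM, and 0.28 for Itga2b. Of the members called in the LDH set, Lamb3 was at 3.90, 3.55 and 3.51 CPM against 2.83, 3.30 and 3.74 CPM (0.15, SE 0.19), and Itga5 at 359, 375 and 462 CPM against 446, 383 and 369.7 CPM (-0.00297, SE 0.12).

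Several laminin chains in the Acly set turned on knockout 2. Lamb1 was at 187, 82.0 and 165 CPM in the knockouts and 146, 153 and 133 CPM in the controls, so that knockouts 1 and 3 lay above the controls and knockout 2 below them. Lamc1 (394, 230.4 and 383 CPM against 373, 369 and 318 CPM), Lama4 (115, 64.3 and 110.1 CPM against 111, 114 and 106 CPM) and Lama2 (11.1, 3.47 and 11.1 CPM against 10.9, 12 and 11.2 CPM) had the same low sample. Their log2 fold changes were 0.01, -0.07, -0.19 and -0.41 with all samples and 0.29, 0.14, 0.03 and -0.04 without knockout 2, none of them called. Itga11 followed the same course, at 12.9, 5.01 and 10.0 CPM in the knockouts. Knockout 2 also had the lowest summed level in its group of fibroblast markers (828 TPM, with 2036 and 2047 TPM in the others) and of skeletal muscle markers (217 TPM, with 422 and 491 TPM). The part of these cells in the low laminin values was not tested. Without knockout 2, 8 members had an unadjusted p under 0.05, a level for which the share of all genes was not counted in that fit. Again no member was called by edgeR, and Itga6 was then at -0.49 (edgeR adjusted p = 0.0613). Among the partner lists, with all samples, edgeR called 0 of 39 adaptors and 0 of 24 basement membrane partners, and DESeq2 called 1 and 0. At an unadjusted p under 0.05 there were 8 adaptors, 4 higher and 4 lower, and 4 basement membrane partners, 3 higher and 1 lower. Of all genes, 15.8% passed that level. Of 13 laminin receptors other than integrins edgeR called 0 as well (3 at an unadjusted p under 0.05, 1 higher and 2 lower, and 1 by DESeq2). Of 30 ligands, 2 were called, both higher, beside 0.136% of all genes. They were Comp, a cartilage protein that integrins bind (log2 fold change 1.03, SE 0.09, edgeR adjusted p = 0.00722), and Col2a1 (1.05, SE 0.11, edgeR adjusted p = 0.0138). Chondrocyte markers summed to 6551 to 7394 TPM in the Acly knockouts and 3868 to 4623 TPM in their controls, and 3 of 14 tested were called, all higher.

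The difference between the effects was tested directly, in a fit of all 12 samples in which the Acly effect was subtracted from the LDH effect. By edgeR 0 of 33 members passed, beside 0.161% of 14251 genes. At an unadjusted p under 0.05 there were 7 members, all with the LDH effect the higher. The share of all genes at that level was not counted for this fit, so the 7 are not read further. DESeq2 called 2 members. Lamb3 was among those 2 (difference of log2 fold changes 1.62, SE 0.34, edgeR adjusted p = 0.0866, DESeq2 adjusted p = 0.00319). For Itga5 the difference was 0.37 (edgeR adjusted p = 0.326) and for Itga10 it was 0.07 with an SE of 0.13. The rise of Lamb3 and Itga5 in the LDH set was thus not shown by edgeR to differ from the Acly effect. The deleted gene, the age, the mouse line and any batch coincide here and cannot be told apart.

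More members were called between the control groups than in either knockout comparison. In the Acly controls, from E18.5, against the LDH controls, from P5, 18 of 33 members were called by edgeR, 17 higher and 1 lower, beside 55.0% of all 14251 genes (29.4% higher and 25.7% lower). The members' share called is near that background, and their direction was mostly higher, with a median log2 fold change of 0.77 beside 0.02 over all genes. All 7 laminin calls among 10 tested were higher. Lamb1 averaged 137 ± 9.48 CPM in the Acly controls and 24.8 ± 6.13 CPM in the LDH controls, 5.52-fold higher (log2 fold change 2.46, SE 0.26). Lamc1 averaged 335 ± 29.4 and 112 ± 8.71 CPM (1.58, SE 0.17) and Lama4 105 ± 3.71 and 19.7 ± 4.54 CPM (2.41, SE 0.21). Lama2, the laminin alpha chain of muscle, averaged 10.8 ± 0.495 and 1.63 ± 0.688 CPM (2.72, SE 0.42). Of the integrins, Itga7, which binds laminin on muscle fibres, averaged 31.7 ± 1.64 and 5.82 ± 1.1 CPM (2.44, SE 0.18), and Itga5 379.7 ± 40.0 and 160.0 ± 9.73 CPM (1.25, SE 0.11). Itga10 averaged 65.4 ± 0.910 and 38.4 ± 1.84 CPM (0.77, SE 0.09), and Itga6, Itga9, Itga4, Itgal and Itgb3 were called higher too, at 0.93 to 1.88. Itga3, a laminin-binding chain, was the exception, at -0.61 (SE 0.17, edgeR adjusted p = 0.00793), and its call was lost on the FPKM scale (adjusted p = 0.0639). Itgb1, Itgb5, Lamb2, Lamb3 and Itgav were not called, with log2 fold changes of 0.21, -0.08, 0.23, -0.26 and -0.22; without TMM scaling, which shifts the median of all genes to 0.19, Itgb1 and Lamb2 were called higher and Itgb5 was at 0.09. Itgb6 had 26, 34 and 32 counts in the Acly controls and 1, 2 and 4 in the LDH controls. Itgb8, its relative that also activates latent TGF-beta with Itgav, had 13, 18 and 14 against 1, 2 and 1 counts, too few for a fold in the LDH controls. Both are among the 17 members called higher. Marker lists differed as well: all 12 tested endothelial, all 11 skeletal muscle and all 10 fibroblast markers were called higher in the Acly controls. Of 14 tested chondrocyte markers, 9 were called higher and 1 lower. Leukocyte markers were mixed, with 8 of 14 called higher and 2 lower, and 1 of 4 platelet markers was called, higher. Summed skeletal muscle marker TPM was 466 to 572 in the Acly controls and 35.7 to 64.1 in the LDH controls. The part of these cells in the members' differences was not tested, and age, line and batch cannot be told apart.

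**Figure D5:**
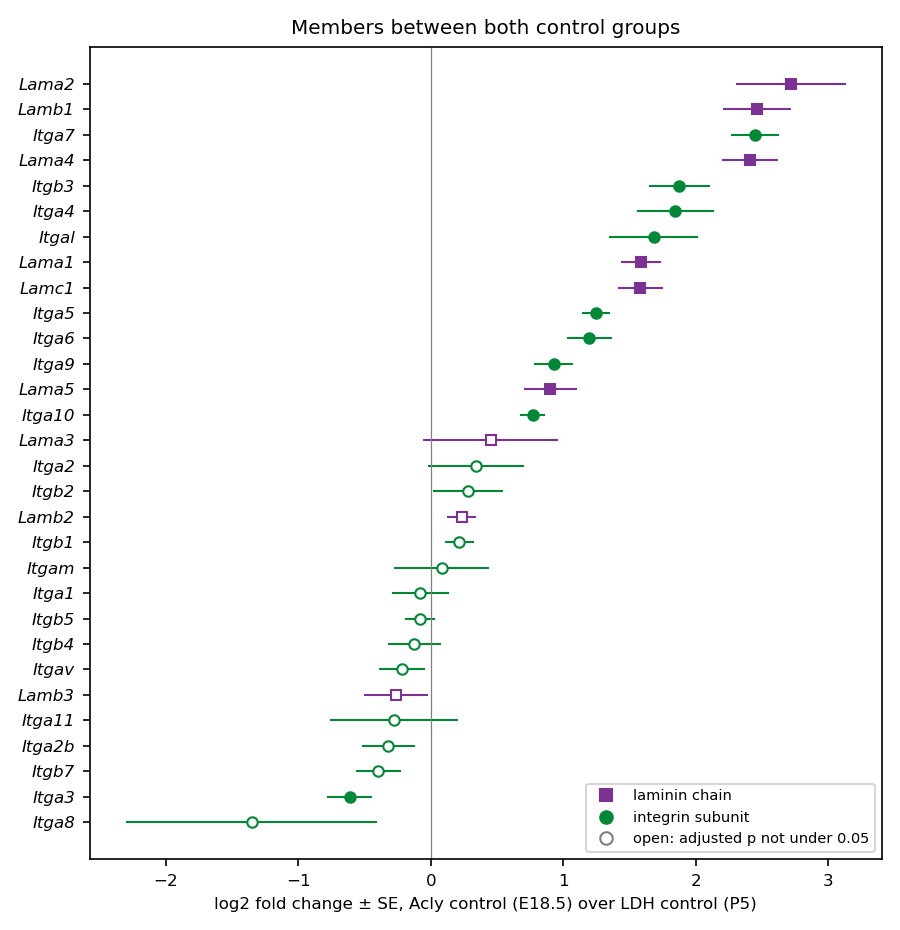
Log2 fold change (Acly control over LDH control) ± SE of the tested members reported here, leaving out Itgb6 and Itgb8, which had few counts in the LDH samples; squares are laminins, circles integrins, and filled symbols have an edgeR adjusted p under 0.05. Lama2, Lamb1, Itga7 and Lama4 stand highest, between 2.41 and 2.72, and Itga3 is called lower at -0.61.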

How the data were processed

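RNA was measured by poly(A) RNA-seq in 12 samples, 3 per group. The authors deposited expected counts, FPKM and TPM per gene and sample. Alignment used HISAT2 2.0.4 and mm9 per the submitters' processing notes. The counting program, annotation and strand use are not given in the sources used here. Between 7.32% and 8.16% of expected counts per sample were not whole, and counts were rounded. edgeR 4.0.16 (R 4.3.3) was run with TMM scaling, filterByExpr (minimum count 10) and the quasi-likelihood F test on the 6 samples of each set, or on all 12, with Benjamini-Hochberg adjustment over all genes tested and a threshold of 0.05. The SE of a log2 fold change is its size over the square root of F. Detection required 3 counts. The edgeR test was run on simulated counts with planted changes, drawn without the spread particular to each gene. The outcome is not given here, and no result rests on it. Alternatives were DESeq2 1.42.0, total counts, no filter, limma 3.58.1 on log2(FPKM + 0.1), a replicate block, a term for Y-linked CPM and leaving out each sample. The members and the gene lists were chosen with earlier results of these data known. Named are the members called and their partner chains, members whose groups did not overlap or that stand apart in the text, chosen after their values were seen, and called genes of each partner list, at most 5 per list. The counts cover all members tested, and 1 member is not reported here by name or value. Reads from overlapping gene models may be shared: by GENCODE M21, 66.7% of the 50-base stretches of Itgam and 30.6% of those of Itga10 lie in another gene model as well.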

Additional observations from a re-analysis of the deposited data

How the results depend on the processing

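The number of members called in the LDH comparison (3) was 5 by DESeq2, 1 by limma on FPKM and 0 with a term for Y-linked signal (9 members then at an unadjusted p under 0.05). It was 0 to 5 when each sample was left out in turn. The samples with low Y-linked signal, an alternative added after the data were seen, hold a single control, so no count is given for them. It was 0 without LDH control 3 (9 members at an unadjusted p under 0.05), 1 without LDH knockout 1, LDH knockout 2 or LDH control 1, and 5 without LDH knockout 3. The share of all genes at an unadjusted p under 0.05 was not counted for these alternatives. In the Acly comparison 0 members were called by edgeR in every alternative and 2 by DESeq2. For the difference of effects the count was 2 by DESeq2 and 0 to 2 over leaving out each sample, with 2 without LDH knockout 3. Between the control groups it stayed at 18 to 20. With the replicate number as a block, 2 members were called in the LDH comparison, 0 in the Acly comparison and 0 for the difference. Whether the numbers pair the samples was not settled. Same-numbered samples had correlations of -0.159 to 0.0491 among the LDH samples and -0.222 to 0.00112 among the Acly samples. Of the samples, 1 of 6 and 0 of 6 correlated best with their own number. Low correlations do not exclude a shared litter. The causes of these moves were not tested. No called member changed sign. Members at a few counts, such as Lama3 in the LDH set, cannot show a small or moderate difference at this depth.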

Other observations

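Itgb7, the beta chain known from lymphocytes, stood at 9.39 to 15.9 TPM in the 12 samples, while its partners Itga4 and Itgae stood at 0.10 to 0.50 TPM and 0 to 0.09 TPM. Of the leukocyte markers, the T cell gene Cd3e was at 0 TPM in 9 of 12 samples and did not exceed 0.20 TPM, the B cell gene Cd79a stood at 0.32 to 2.36 TPM, and the macrophage genes Lyz2 and Cd68 at 42.4 to 156 and 43 to 124 TPM. Itgb5 stood at 181 to 231 TPM beside 10.4 to 25.2 TPM for Itgav, the alpha chain with which it pairs.

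Itga8 fell into low and high samples in the LDH set, with 0.05 to 0.10 TPM in LDH knockouts 2 and 3 and LDH control 1 and with 1.18 to 2 TPM in LDH knockout 1 and LDH controls 2 and 3. In the Acly set it ranged from 0.21 to 0.72 TPM. Itga11, a collagen receptor chain of fibroblasts, was at 1.07 TPM in LDH control 1 and at 5.83 to 7.49 TPM in the other LDH samples.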
